A study of Rattus norvegicus with 6 samples.

Results

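Transcripts of the cytokine tumour necrosis factor (TNF), of its receptors and receptor relatives, and of the proteins that decide between survival and death downstream of them were measured in cultured rat cardiac fibroblasts. The genes were taken by symbol from the deposited table and were Tnf, Tnfrsf1a, Tnfrsf1b, Fas, Cd40, Tnfrsf11b, Tnfrsf12a, Birc2, Birc3 and Cflar. All 10 of 10 were found among the 30560 genes of the table. The cells were primary fibroblasts from the ventricles of Sprague-Dawley rat pups aged 1 to 2 days, enriched as the cells that attached first and kept without serum overnight. The group called antagomiR had been transfected with 50 nM of an antagomiR against miR-142-3p, a modified antisense oligonucleotide that blocks a mature microRNA, and the group called NC with 50 nM of the study's NC, its control. Both groups had passed through the same lipid transfection reagent. Each had 3 polyA-selected RNA libraries, and the labels do not say whether these came from separate isolations. The p-values therefore cover the spread among these 6 libraries, which may be technical. Values are FPKM, which are fragments scaled to the length of the gene and the total of the library.

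The microRNA that the oligonucleotide was directed against is known mainly from blood cells. Its mature rat sequence, from RefSeq on GRCr8 (chr10:73055155-73055177, plus strand), is shown because it defines the treatment, with the seed (bases 2 to 8) in capitals.
rno-miR-142-3p: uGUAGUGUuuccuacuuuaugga

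TNF is made as a membrane protein, is shed by a protease and binds a pair of receptors, of which TNF receptor 1 carries a death domain and TNF receptor 2 does not. An engaged TNF receptor 1 gathers adaptors and the ubiquitin ligases cIAP1 and cIAP2, and the ubiquitin chains they build switch on the NF-kB pathway. If that complex fails, caspase 8 is activated, and the caspase-like protein c-FLIP holds it back. In the heart, TNF signalling is known from infarction and heart failure, where fibroblasts both make and answer inflammatory cytokines.

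The libraries held 19472409 to 24622667 fragments each, as recovered from the FPKM values, and 12024 genes averaging 1 FPKM or more across both groups were tested. The fibroblast markers Col1a1, Col1a2 and Col3a1 were the most abundant of 11 in that list, which summed to between 12003 and 12258 FPKM in the antagomiR libraries and between 12745 and 12968 FPKM in the NC libraries. Within that list 6 markers were called up, Pdgfra, Dcn, Postn, Lum, Tcf21 and Ddr2, and 3 down, Col1a2, Thy1 and Vim. Leukocyte and macrophage markers were present too, and 15 of them summed to 1092, 982 and 1033 FPKM in antagomiR replicates 1 to 3, against 148, 215 and 756 FPKM in NC replicates 1 to 3. Lyz2, Tyrobp and Fcer1g led that list, and Cd163 was listed at 0 in every library but NC replicate 1. Of the lymphocyte markers Cd3e and Ms4a1 were at 0 in all 6 libraries, and the list summed to at most 0.304 FPKM in any. Cardiomyocyte markers summed to between 296 and 356 FPKM with the antagomiR and between 389 and 431 FPKM in NC, endothelial markers to at most 3.79 and 2.72 FPKM, and smooth muscle and pericyte markers to at most 220 and 261 FPKM. The cardiomyocyte sum was mostly Tnnt2, which was called down, while Myh7 was called up. Of 4 tested smooth muscle and pericyte markers 3 were called down, Myh11, Cspg4 and Notch3. The 1 tested endothelial marker, Tek, was called up. Over all tested genes 17.5% were called up and 9.21% down. NC replicate 3 stood apart from NC replicates 1 and 2. In such bulk samples, fewer cells of a type and less RNA per cell cannot be told apart.

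Of the 10 genes, 9 rose and 1 fell with the antagomiR. All 10 passed the filter on low values. Tnf did so only through the antagomiR group, as its NC mean was 0.402 FPKM. The test was limma on log2(FPKM + 1), two-sided, with a Benjamini-Hochberg adjusted p under 0.05 over all tested genes. By the same test 26.7% of all tested genes were called, of which 17.5% of all tested rose and 9.21% fell. The groups' ranges did not overlap for any of the 10, as for 44.6% of all tested genes. The median log2 fold change of the 10 was 0.66, beside 0.06 over all tested genes. The 10 genes were chosen with earlier results of these data known, so their counts and median are descriptive only. Tnf, Birc3, Tnfrsf1b and Cd40 had at least 2 times their NC mean FPKM, a rise that 4.97% of all tested genes shared at that adjusted p. The calls and directions of the 10 genes held in each of the alternative fits in which the gene was tested. Without NC replicate 3 the log2 fold change was 3.03 for Tnf, 1.79 for Birc3, 0.72 for Birc2, 0.60 for Cflar, 0.53 for Tnfrsf1a, 0.52 for Tnfrsf11b and 0.43 for Fas. Those of Tnfrsf1b, Cd40 and Tnfrsf12a without it are given with each gene.

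**Figure D1:**
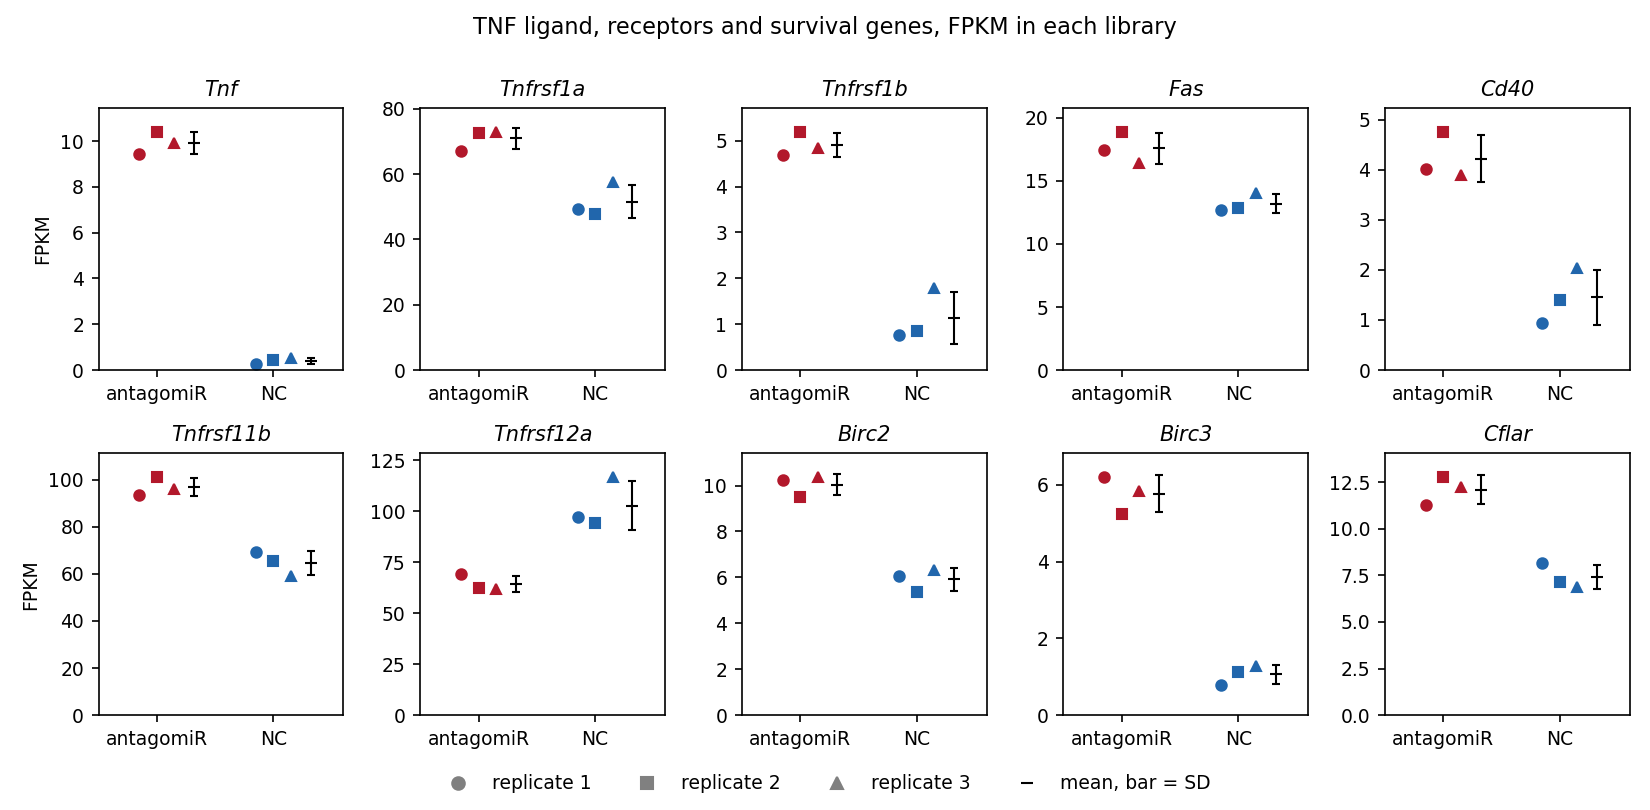
FPKM (vertical axes, each from 0) of the 10 genes in the 3 antagomiR libraries (red, left) and the 3 NC libraries (blue, right). Symbols are replicates 1 to 3 and the black dash with its bar is the mean with SD. The groups are apart in every panel, Tnf is near 0 in NC, and Tnfrsf12a is the gene that is lower with the antagomiR.

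Tnf, the ligand itself, showed the largest rise of the 10. It had 9.43, 10.4 and 9.90 FPKM in the antagomiR libraries, counted from 261, 319 and 282 fragments. In NC replicates 1 to 3 it had 0.247, 0.430 and 0.530 FPKM, from 6, 13 and 13 fragments. All antagomiR libraries were thus at a moderate level and all NC libraries near the limit of detection, where counts are least precise. The mean was 9.91 ± 0.484 FPKM with the antagomiR and 0.402 ± 0.143 FPKM in NC (SD, n = 3 each), a ratio of 24.6. In limma the log2 fold change came to 2.96, SE 0.10 (adjusted p = 6.94e-06), and 99.7% of tested genes had a lower one. The added 1 in log2(FPKM + 1) understates changes of low genes, and limma voom on the recovered fragment counts gave 4.61. Tnf (ENSRNOG00000070745) lies on chromosome 20 from 3622011 to 3624629 in mRatBN7.2.

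Tnfrsf1a encodes TNF receptor 1, which is found on most cell types. It had 67.2, 72.7 and 72.9 FPKM in antagomiR replicates 1 to 3, against 49.4, 47.9 and 57.5 FPKM in NC replicates 1 to 3. The receptor was abundant in both groups, and NC replicate 3 came closest to the antagomiR libraries. The mean ratio was 1.38 and the log2 fold change 0.46, with a 95% interval from 0.27 to 0.64 (limma adjusted p = 0.00583). Tnfrsf1a (ENSRNOG00000031312) lies on chromosome 4 from 158150820 to 158163591.

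Tnfrsf1b encodes TNF receptor 2, which is best known from immune and endothelial cells. It had 4.70, 5.19 and 4.84 FPKM in antagomiR replicates 1 to 3, against 0.759, 0.861 and 1.79 FPKM in NC replicates 1 to 3. NC replicate 3 was at 2.21 times the mean of NC replicates 1 and 2 and still below every antagomiR library. The log2 fold change was 1.498 with a 95% interval from 1.08 to 1.91 (limma adjusted p = 0.00116), and it was 1.71 without NC replicate 3. The mean ratio was 4.32 and, without NC replicate 3, 6.06. The gene (ENSRNOG00000016575) lies on chromosome 5 from 157070642 to 157104206.

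The balance of the pair of TNF receptors was compared within each library. The ratio of Tnfrsf1b to Tnfrsf1a in FPKM was 0.0699, 0.0714 and 0.0664 in antagomiR replicates 1 to 3, against 0.0154, 0.0180 and 0.0312 in NC replicates 1 to 3. TNF receptor 1 transcript stayed the more abundant by far in all 6 libraries. All antagomiR ratios were above all NC ratios, and the exact two-sided permutation p was 0.1, the smallest that 3 libraries against 3 can give. In all 4 ratios were compared, each with that p, and the Benjamini-Hochberg adjusted value was 0.1 for each.

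Fas and Cd40 are receptors of the same superfamily with other ligands. Fas, a death domain receptor that triggers apoptosis when bound by Fas ligand, had 17.5, 18.9 and 16.5 FPKM in antagomiR replicates 1 to 3, against 12.7, 12.9 and 14.0 FPKM in NC replicates 1 to 3. This was the smallest of the rises among the 10, at 1.33 times the NC mean, with a log2 fold change of 0.39 and a 95% interval from 0.22 to 0.56 (limma adjusted p = 0.00728). The transcript of its ligand, Faslg, lay at or below 0.127 FPKM in all 6 libraries, from 0 to 5 fragments. Cd40, the receptor through which T cells stimulate antigen-presenting cells, had 4.01, 4.75 and 3.90 FPKM in antagomiR replicates 1 to 3, against 0.931, 1.40 and 2.03 FPKM in NC replicates 1 to 3. Its NC values rest on 24, 45 and 53 fragments, and the highest of them was again in NC replicate 3. The log2 fold change of Cd40 was 1.11 with a 95% interval from 0.71 to 1.505 (limma adjusted p = 0.00336), and 1.27 without NC replicate 3. Fas (ENSRNOG00000019142) lies on chromosome 1 from 231798960 to 231832591 and Cd40 (ENSRNOG00000018488) on chromosome 3 from 153790449 to 153805534.

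Tnfrsf11b and Tnfrsf12a were, with Tnfrsf1a, the most abundant of the 10 and went in opposite directions. Tnfrsf11b encodes osteoprotegerin, a secreted decoy receptor that binds the ligands RANKL and TRAIL. It had 93.6, 101 and 95.8 FPKM in antagomiR replicates 1 to 3, against 69.1, 65.5 and 59.1 FPKM in NC replicates 1 to 3. The highest NC library was NC replicate 1 and not NC replicate 3. The mean difference of 32.3 FPKM was the largest rise in FPKM among the 10, and limma gave a log2 fold change of 0.58, SE 0.07 (adjusted p = 0.00125). Of its ligands, Tnfsf11, which encodes RANKL, was listed at 0 in all 6 libraries, and Tnfsf10, which encodes TRAIL, had 3, 1 and 0 fragments in the antagomiR libraries and 0 in each NC library. Tnfrsf11b (ENSRNOG00000008336) lies on chromosome 7 from 85566520 to 85594538.

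Tnfrsf12a encodes Fn14, the small receptor of the cytokine TWEAK, and it was the gene of the 10 that fell. It had 69.0, 62.2 and 61.8 FPKM in antagomiR replicates 1 to 3, against 97.2, 94.3 and 117 FPKM in NC replicates 1 to 3. The antagomiR libraries lay close together and NC replicate 3 was the highest of all. The mean fell to 64.3 ± 4.08 FPKM with the antagomiR, against 103 ± 12.2 FPKM in NC (SD, n = 3 each). The log2 fold change was -0.66 with a 95% interval from -0.88 to -0.45 (limma adjusted p = 0.00235), and 2.22% of tested genes had a lower one. Without NC replicate 3 it was -0.57. Tnfsf12, which encodes the ligand TWEAK, had 22.6, 21.0 and 21.9 FPKM in antagomiR replicates 1 to 3, against 14.3 and 15.0 FPKM in NC replicates 1 and 2 and almost as much as the antagomiR libraries, 19.9955 FPKM, in NC replicate 3. Tnfsf12 was called up at a log2 fold change of 0.40 (limma adjusted p = 0.0446), but lost the call in 9 of 13 alternative fits, with adjusted p up to 0.14. The table gives Tnfrsf12a (ENSRNOG00000003546) on chromosome 10 from 12689890 to 12709045, a span shared with 3 other entries. The most abundant of these, Hcfc1r1, averaged 125 FPKM with the antagomiR and 136 FPKM in NC, and without a stated strand setting reads of overlapping neighbours cannot be told apart.

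Within each library the ratio of Tnfrsf11b to Tnfrsf12a was 1.36, 1.63 and 1.55 in antagomiR replicates 1 to 3, against 0.711, 0.694 and 0.506 in NC replicates 1 to 3. The osteoprotegerin transcript was thus the more abundant of the pair in every antagomiR library and the less abundant in every NC library. Tnfrsf11b was higher and Tnfrsf12a lower in every antagomiR library than in every NC library. Their ratio therefore had to separate the groups, and its permutation p adds nothing to the single genes. In order of mean FPKM, Tnfrsf11b led with the antagomiR, ahead of Tnfrsf1a and Tnfrsf12a, whose ranges overlapped. In NC the order was Tnfrsf12a, Tnfrsf11b and Tnfrsf1a, with no overlap between neighbours. Fas, Cflar and Birc2 followed in that order in both groups. At the low end Tnf came level with Birc2 in the antagomiR libraries, ahead of Birc3, Tnfrsf1b and Cd40, whereas in NC it lay below Cd40, Tnfrsf1b and Birc3, which overlapped one another.

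**Figure D2:**
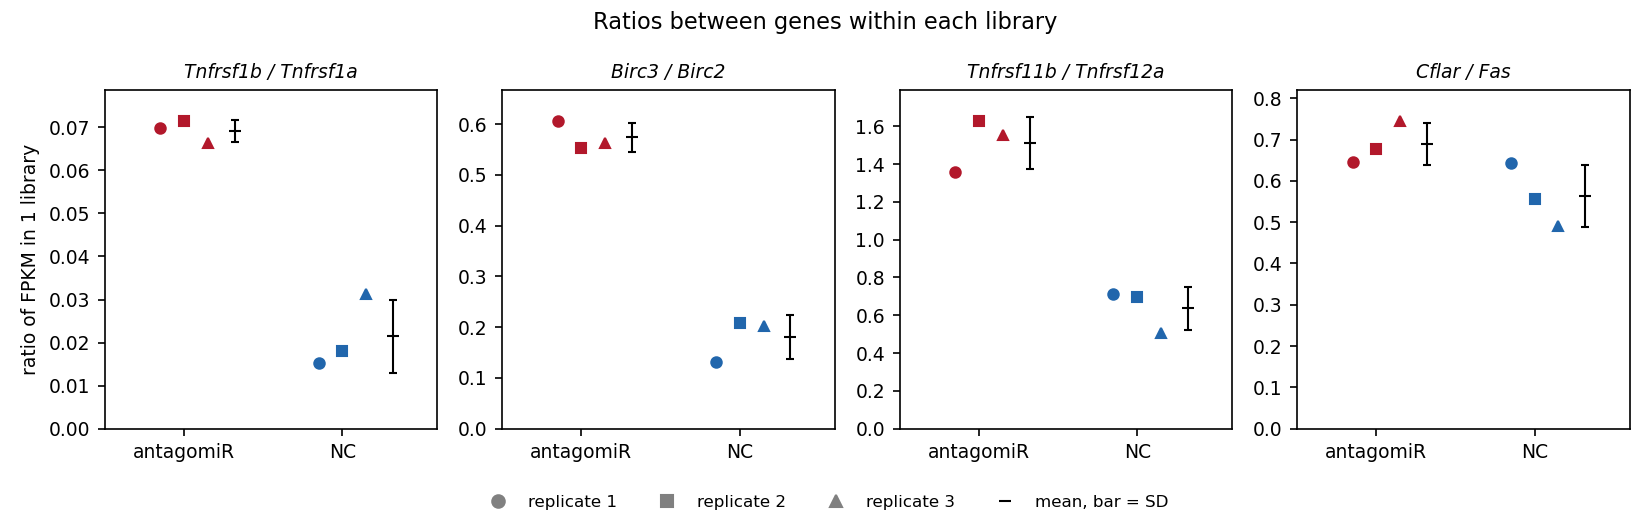
Ratio of FPKM between pairs of the 10 genes within each library (vertical axes, each from 0), with the antagomiR libraries in red on the left and the NC libraries in blue on the right. Symbols are replicates 1 to 3 and the black dash with its bar is the mean with SD. Ratios of Tnfrsf1b to Tnfrsf1a and of Birc3 to Birc2 are higher in all 3 antagomiR libraries, while Cflar to Fas nearly touches at 0.645 with the antagomiR and 0.642 in NC.

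Birc3, Birc2 and Cflar, which encode inhibitors of cell death downstream of these receptors, each rose. Birc3 encodes cIAP2, a ubiquitin ligase of the TNF receptor complex and a textbook NF-kB target. It had 6.20, 5.25 and 5.84 FPKM in antagomiR replicates 1 to 3, against 0.793, 1.12 and 1.29 FPKM in NC replicates 1 to 3. Every antagomiR library lay far above the highest NC library, which was again NC replicate 3. The mean ratio was 5.41 and the log2 fold change 1.72, SE 0.11 (limma adjusted p = 0.000123).

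Birc2 encodes cIAP1, the close relative of cIAP2 with the same task. It had 10.2, 9.50 and 10.4 FPKM in antagomiR replicates 1 to 3, against 6.05, 5.36 and 6.33 FPKM in NC replicates 1 to 3. It rose less than its relative, by 1.70 times in mean FPKM, with a log2 fold change of 0.68, SE 0.08 (limma adjusted p = 0.000969). The ratio of Birc3 to Birc2 was 0.606, 0.552 and 0.564 in antagomiR replicates 1 to 3, against 0.131, 0.208 and 0.203 in NC replicates 1 to 3. Birc2 transcript remained the more abundant in all 6 libraries, and the exact permutation p of the ratio was again 0.1. The genes are neighbours on chromosome 8, Birc2 (ENSRNOG00000010602) from 4968842 to 4988732 and Birc3 (ENSRNOG00000005731) from 5000845 to 5015802. How reads that match both were counted is not given in the sources used here.

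Cflar encodes c-FLIP, which resembles caspase 8 without being an active protease. It had 11.3, 12.8 and 12.2 FPKM in antagomiR replicates 1 to 3, against 8.14, 7.17 and 6.89 FPKM in NC replicates 1 to 3. NC replicate 3 was the lowest library here, unlike for Tnf, Tnfrsf1b or Cd40. The mean ratio was 1.63 and the log2 fold change 0.64, SE 0.08 (limma adjusted p = 0.00153). Its ratio to Fas, the receptor whose signal it restrains, averaged 0.688 ± 0.0510 with the antagomiR and 0.563 ± 0.0760 in NC (SD, n = 3 each). Those groups were separated by less than either SD at their nearest libraries. Cflar (ENSRNOG00000012473) lies on chromosome 9 from 60185452 to 60237034. The values are sums over its splice forms, and c-FLIP forms of different length were not distinguished.

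**Figure D3:**
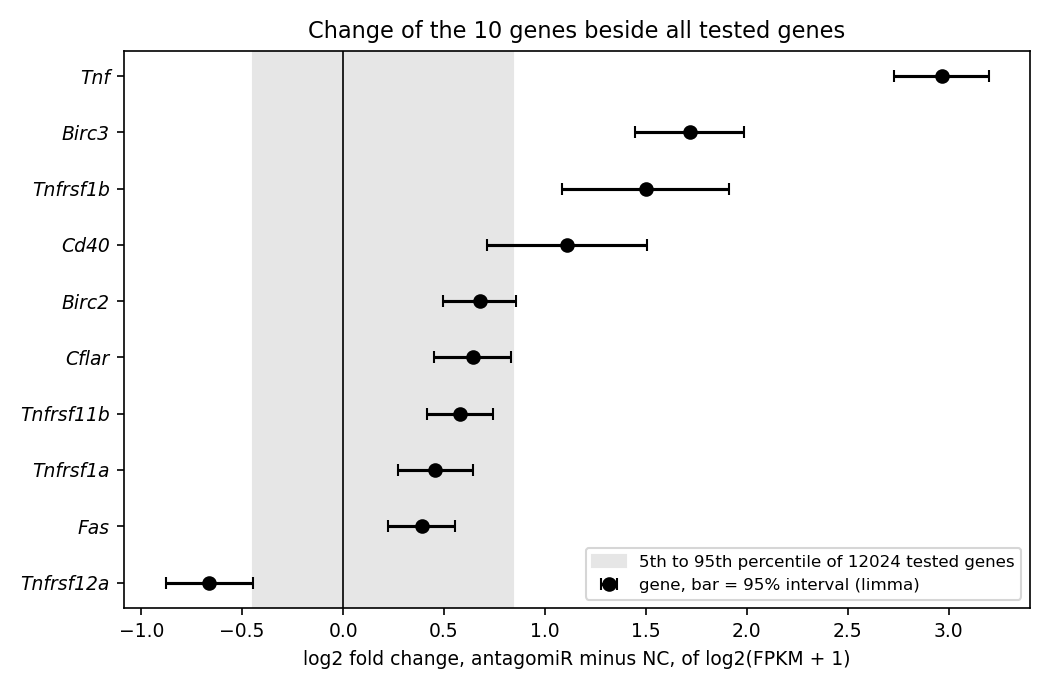
Log2 fold change of log2(FPKM + 1), antagomiR minus NC (horizontal axis), of each of the 10 genes, with 95% intervals from limma, and in grey the span from the 5th to the 95th percentile of all 12024 tested genes, -0.45 to 0.84. Tnf, Birc3, Tnfrsf1b and Cd40 have estimates above that span, Tnfrsf12a lies below it, and the other 5 lie inside it on the side of a rise.

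The NC libraries were compared with the antagomiR mean because leukocyte markers also differed between groups. Of 15 leukocyte and macrophage markers 14 were tested, and 6 were called up and none down, beside 17.5% and 9.21% of all tested genes. For 14 of 15 NC replicate 3 exceeded both other NC libraries. Among the 10 genes 8 were higher in NC replicate 3 than in both other NC libraries, as were 41.9% of all tested genes. The summed markers of NC replicate 3 reached 73.0% of the antagomiR mean, with 14.3% and 20.7% in NC replicates 1 and 2. Tnf reached 5.34% of its antagomiR mean in NC replicate 3, and 2.50% and 4.34% in NC replicates 1 and 2. Birc3 stood at 22.3%, Tnfrsf1b at 36.5% and Cd40 at 48.1% in NC replicate 3. These 4 shares were below that of the marker sum, in which Lyz2 alone made 523 of 1036 FPKM in the antagomiR mean. In NC replicate 3 single markers ran from 19.3% for Adgre1, below Birc3, Tnfrsf1b and Cd40, to 200% for Mrc1. Cd14 stood at 47.6%, close to Cd40. Cflar at 57.0%, Tnfrsf11b at 61.0% and Birc2 at 63.1% were also below the 73.0% of the marker sum, whereas Fas at 79.8% and Tnfrsf1a at 81.0% were above it, and Tnfrsf12a, the gene that fell, stood at 181%. Without NC replicate 3, the marker sum was 5.72 times as high with the antagomiR, beside 29.3 times for Tnf, 6.06 for Tnfrsf1b, 6.04 for Birc3 and 3.62 for Cd40. Single markers then ran from 1.59 times for C1qa to 25.3 times for Adgre1. The part of leukocyte RNA in the rises of the 10 genes was not tested.

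**Figure D4:**
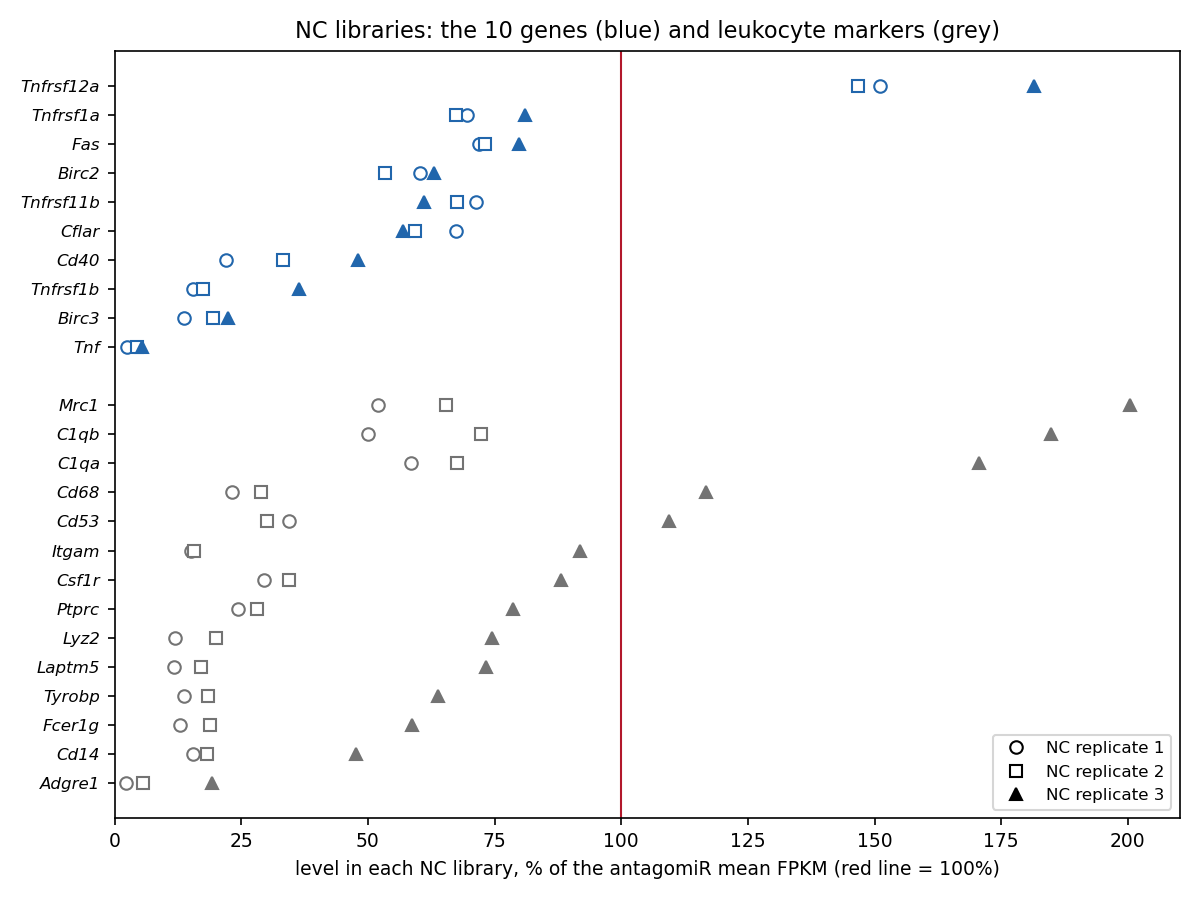
Level of each of the 10 genes (blue) and of 14 leukocyte and macrophage markers (grey) in each NC library, as a percentage of the gene's mean FPKM in the antagomiR libraries, which is marked by the red line at 100%. Open circles, open squares and filled triangles are NC replicates 1, 2 and 3. The triangles of the markers lie to the right of their open symbols, between 19.3% and 200%. So do those of 8 of the 10 genes, among them Tnf at 5.34%, Tnfrsf1b at 36.5% and Cd40 at 48.1%.

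Promoters were available in RefSeq on GRCr8 for 7 of the 10 genes, as 250 bases before to 50 after the start. Those of the largest rise, the smallest rise and the fall are shown, to set the sequences beside genes that moved unlike one another. Capitals mark matches on either strand to the kappa-B consensus, to the AP-1 site TGANTCA, to TATAAA and to the GC box GGGCGG. The windows are chr20:3626435-3626734 on the plus strand for Tnf, chr1:241211905-241212204 on the plus strand for Fas and chr10:13213599-13213898 on the minus strand for Tnfrsf12a.
Tnf: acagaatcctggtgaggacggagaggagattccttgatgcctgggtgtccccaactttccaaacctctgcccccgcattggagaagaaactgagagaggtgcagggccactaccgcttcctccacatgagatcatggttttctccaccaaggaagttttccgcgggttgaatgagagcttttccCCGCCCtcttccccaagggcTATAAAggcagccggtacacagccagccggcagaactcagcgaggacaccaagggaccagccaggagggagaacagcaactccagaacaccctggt
Fas: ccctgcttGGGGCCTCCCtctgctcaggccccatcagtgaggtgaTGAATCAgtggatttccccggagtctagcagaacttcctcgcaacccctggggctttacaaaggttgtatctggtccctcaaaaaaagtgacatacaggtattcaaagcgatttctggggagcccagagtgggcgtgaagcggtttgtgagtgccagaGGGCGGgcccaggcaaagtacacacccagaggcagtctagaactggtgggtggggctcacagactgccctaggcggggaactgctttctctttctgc
Tnfrsf12a: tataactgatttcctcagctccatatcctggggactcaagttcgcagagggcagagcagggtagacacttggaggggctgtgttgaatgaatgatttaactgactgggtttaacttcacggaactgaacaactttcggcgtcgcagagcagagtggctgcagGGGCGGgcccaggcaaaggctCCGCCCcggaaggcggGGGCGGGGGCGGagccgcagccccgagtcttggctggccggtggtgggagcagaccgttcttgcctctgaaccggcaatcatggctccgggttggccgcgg

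The Tnf window held TATAAA from base -46 to -41 before the start and 1 GC box. The Tnfrsf12a window held 4 GC boxes, of which a pair adjoins, and no match to the other motifs. The kappa-B consensus matched in the Fas window, from base -242 to -233, and in none of the other 6. Over all 33469 promoters of the same length, 7.51% held that consensus, 7.33% the AP-1 site, 14.2% TATAAA and 33.1% the GC box. Among the 7 windows the AP-1 site was present in Fas, Tnfrsf1b and Birc2, TATAAA in Tnf and Birc2, and the GC box in Tnf, Fas, Tnfrsf1b and Tnfrsf12a. Those of Tnfrsf1a and Cflar held none of the 4 motifs. A match is a run of letters only, and regulatory sites outside these windows were not searched.

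The lists of other pathway genes were written with earlier results of these data known, so their counts are descriptive only. Of the list genes that were called most rose, as did 65.6% of the called genes over all tested. Across 7 lists of ligands, receptors, adaptors, ubiquitin and kinase steps, death complexes, the BCL2 family and shedding, 70 genes beside the 10 were tested. Of these 30 rose and 3 fell, beside 17.5% and 9.21% of all tested genes, and 37 were not called. Their median log2 fold change was 0.21, beside 0.06 over all tested genes. Without NC replicate 3, 36 rose and 4 fell, and over all 12032 genes then tested the counts also increased, to 3200 and 1677. None of the 33 other named genes that were tested lost its call or turned direction without that library, and Tradd gained a call. Among the called list genes, Tnfrsf14, Traf1 and Tnfaip3 passed the filter only through the antagomiR group. Their NC means were 0.0538, 0.440 and 0.965 FPKM.

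**Figure D5:**
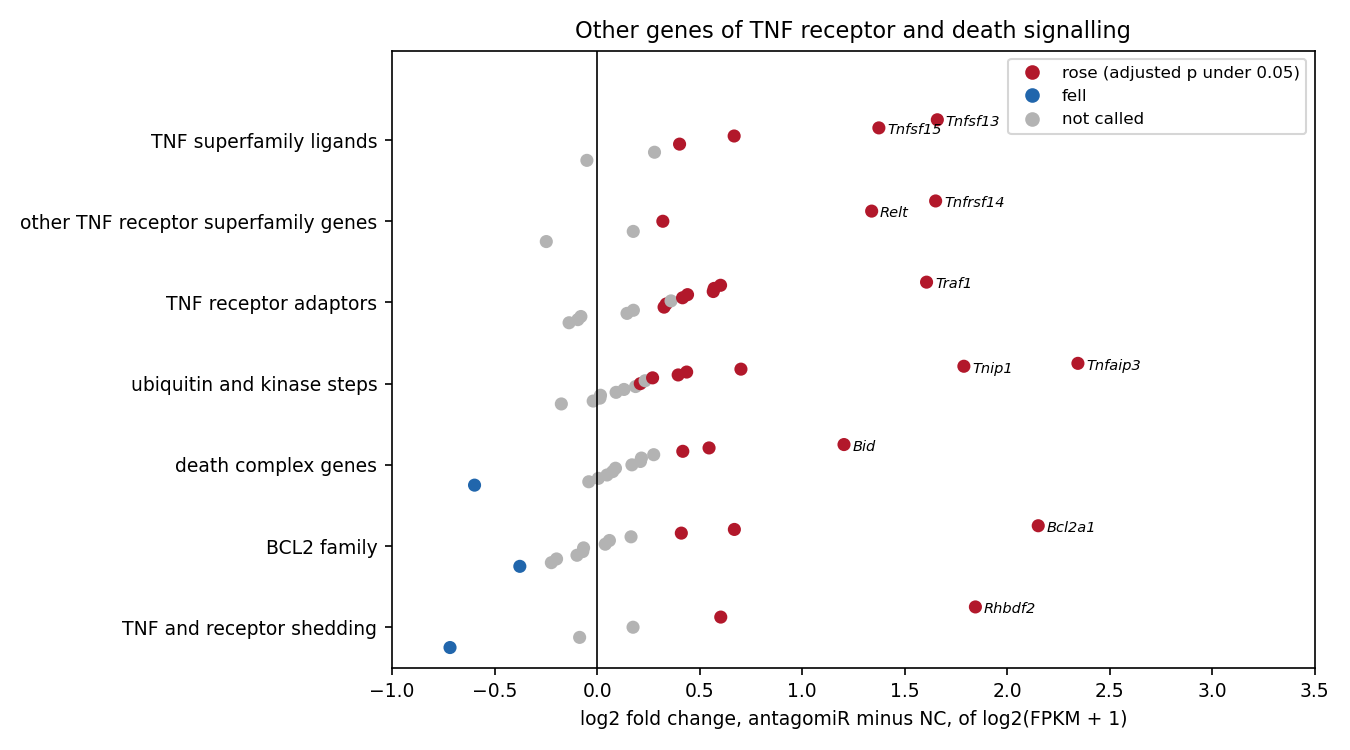
Log2 fold change of log2(FPKM + 1), antagomiR minus NC (horizontal axis), of the 70 other tested genes in 7 lists (rows), with 1 point per gene. Red points rose, blue points fell and grey points were not called by limma at an adjusted p under 0.05, and genes above 1 are named. Most points lie to the right of 0, and Tnfaip3 at 2.35 and Bcl2a1 at 2.15 lie farthest out.

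Of the ligands beside Tnf, 4 of 6 tested rose and none fell, beside 17.5% and 9.21% of all tested genes. Tnfsf13, which encodes APRIL, a survival factor of B cells, had 11.3, 10.7 and 11.3 FPKM in antagomiR replicates 1 to 3, against 1.91, 2.53 and 4.47 FPKM in NC replicates 1 to 3. Tnfsf15, which encodes the cytokine TL1A, averaged 5.41 ± 0.691 FPKM with the antagomiR and 1.48 ± 0.378 FPKM in NC (SD, n = 3 each). Tnfsf9, the ligand of a T cell costimulatory receptor, rose by 0.67 on the log2 scale. The most abundant ligand transcript, Tnfsf18, was not called, with 96.0, 111 and 103 FPKM in antagomiR replicates 1 to 3 and 100.3, 79.7 and 76.6 FPKM in NC replicates 1 to 3. Of the 18 listed, 9 lay below the filter, among them Ltb, which encodes lymphotoxin beta, with 37, 31 and 34 fragments in the antagomiR libraries and 0, 0 and 5 in the NC libraries (a gene named after its values were seen, as was Tnfsf18). Cd40lg and Tnfsf13b had no entry under those symbols among the deposited genes, so nothing is known of them here.

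Of the other receptors, a list that also holds the adaptor gene Edaradd, 5 were tested, 3 rose and none fell, with 14 below the filter. Eda2r had no entry under that symbol. Over all tested genes 17.5% rose and 9.21% fell. Without antagomiR replicate 2 or 3 the rises called numbered 1, where Ltbr lost its call and Tnfrsf14 lay below the filter and was not tested, and without NC replicate 3 there was also 1 fall. Tnfrsf14, the receptor of the ligand LIGHT, had 1.76, 2.77 and 2.46 FPKM in antagomiR replicates 1 to 3, against 0.161, 0 and 0 FPKM in NC replicates 1 to 3. Its fitted log2 fold change of 1.65 (limma adjusted p = 0.000349) depends on the added constant and was 4.12 with 0.1 in place of 1 and 6.77 by voom, with 9, 0 and 0 fragments behind the NC values. Relt rose by 1.34 (limma adjusted p = 0.00373). Ltbr, the lymphotoxin beta receptor, averaged 84.6 ± 4.47 FPKM with the antagomiR and 67.9 ± 8.58 FPKM in NC (SD, n = 3 each). It was called at 0.32 (limma adjusted p = 0.0442) and lost the call in 8 of 13 alternative fits, with adjusted p up to 0.145.

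Of 14 genes listed as receptor adaptors or their partners inside the cell, 8 rose and none fell, beside 17.5% and 9.21% of all tested genes. Traf1, a partner of cIAP1 and cIAP2, had 3.26, 3.40 and 3.44 FPKM in antagomiR replicates 1 to 3, against 0.276, 0.423 and 0.621 FPKM in NC replicates 1 to 3, a log2 fold change of 1.61 (limma adjusted p = 0.000138). By voom on the recovered fragments it was 2.97. Traf2, which brings the cIAP proteins to the receptor complex, rose by 0.60 and Traf3 by 0.44. The kinase gene Ripk1 rose by 0.33 and Fadd, which links death domains to caspase 8, by 0.42. Tank, which binds TRAF proteins, rose by 0.57, and Bag4, which encodes a protein that silences TNF receptor 1, by 0.57. Fadd lost its call in 3 of 12 alternative fits, with adjusted p up to 0.0663. Tradd, the adaptor of TNF receptor 1, had 12.6, 12.6 and 13.1 FPKM in antagomiR replicates 1 to 3, against 9.83, 10.8 and 14.1 FPKM in NC replicates 1 to 3. It was not called (log2 fold change 0.15, limma adjusted p = 0.411), and without NC replicate 3 it was called at 0.28 (adjusted p = 0.00939).

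Of 15 tested genes of the ubiquitin and kinase steps 7 rose and none fell, beside 17.5% and 9.21% of all tested genes. Tnfaip3, which encodes the feedback inhibitor A20, rose by 2.35 and Tnip1, its partner, by 1.79. The deubiquitinase genes Otulin and Cyld rose by 0.70 and 0.40, and Rnf31, of the linear ubiquitin ligase, by 0.44. Rnf31 lost its call in 5 of 13 alternative fits, with adjusted p up to 0.0809. Xiap, a relative of Birc2 and Birc3 that inhibits caspases, was not called (log2 fold change 0.19, 95% interval 0.03 to 0.35, limma adjusted p = 0.0849). The count of 7 was 4 under quantile normalization and 4 without antagomiR replicate 1, 2 or 3. Of the 18 listed, 16 had an entry, and Ikbkg and Tab3 had none under those symbols.

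Of 13 tested death complex genes 3 rose and 1 fell, counts near the shares over all tested genes, and without NC replicate 3 the count of rises was 5. Bid, which carries the caspase 8 signal to mitochondria, had 12.8, 14.7 and 13.6 FPKM in antagomiR replicates 1 to 3, against 3.86, 5.15 and 7.63 FPKM in NC replicates 1 to 3. Ripk3 and Mlkl, the kinase and effector of necroptosis, rose by 0.55 and 0.42. Diablo, whose mitochondrial product binds and neutralises IAP proteins, fell by 0.60 (limma adjusted p = 0.00079), to 39.3, 35.4 and 37.8 FPKM in antagomiR replicates 1 to 3, against 55.3, 55.5 and 61.1 FPKM in NC replicates 1 to 3. Casp8 was not called (log2 fold change 0.22, 95% interval 0.02 to 0.41, limma adjusted p = 0.0942).

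Of 12 tested BCL2 family genes 3 rose and 1 fell, and their median log2 fold change was -0.01, beside 0.06 over all tested genes. With lists this short, such counts are near the 17.5% of all tested genes that rose and the 9.21% that fell. Of the 15 listed, 13 had an entry. Bcl2 itself and Hrk had none under those symbols, so nothing is known of them here. Bcl2a1, an inhibitor of mitochondrial death that leukocytes are known for, had 24.6, 19.99 and 22.2 FPKM in antagomiR replicates 1 to 3, against 2.64, 2.42 and 10.4 FPKM in NC replicates 1 to 3. NC replicate 3 stood apart for it as for the leukocyte markers, and the log2 fold change was 2.15 with all libraries and 2.71 without that library. Bok rose by 0.67 and the killer gene Bcl2l11 by 0.41, which was not called in 3 of 13 alternative fits (adjusted p up to 0.0702). Pmaip1, which encodes the killer protein NOXA, fell by 0.38 (limma adjusted p = 0.0301) and lost the call in 6 of 13, with adjusted p up to 0.108.

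Among 5 genes that govern shedding of TNF and its receptors, 2 rose and 1 fell, beside 17.5% and 9.21% of all tested genes. A list of 5 is too short to set against those shares. Rhbdf2, a carrier that brings the sheddase ADAM17 to the surface in immune cells, had 13.0, 13.6 and 13.6 FPKM in antagomiR replicates 1 to 3, against 2.26, 2.83 and 4.14 FPKM in NC replicates 1 to 3. Adam17, the sheddase itself, averaged 23.4 ± 1.64 FPKM with the antagomiR and 15.1 ± 0.902 FPKM in NC (SD, n = 3 each). Timp3, the secreted inhibitor of ADAM17, fell to 43.0, 48.9 and 43.6 FPKM in antagomiR replicates 1 to 3, against 79.1, 75.6 and 69.8 FPKM in NC replicates 1 to 3. Their log2 fold changes were 1.85, 0.60 and -0.72 (limma adjusted p = 0.000299, 0.00126 and 0.000617).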

How the data were processed

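The libraries of polyadenylated RNA were read from both ends at 150 bp, per the labels' protocols. Tools listed without versions in the submitters' processing notes are HTSeq, HISAT2, cutadapt, FastQC and edgeR, with the build mRatBN7.2. Neither the strand setting nor the annotation release is given in the sources used here. The authors deposited FPKM for 30560 genes, and 0 per-sample columns were unassigned. Fragment counts and library totals were recovered from them, with whole numbers (within 0.01) for 100% of the 20134 genes above 0. On simulated data 6 totals and the counts of 99.1% of 3000 genes came back exactly.

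Differences were tested with limma 3.58.1 under R 4.3.3 (eBayes with trend) on log2(FPKM + 1), antagomiR minus NC, for genes averaging 1 FPKM or more, without a replicate block. In a simulation on 11962 genes it recovered 64.2% of the 1.5-fold changes and 96.9% of the 2-fold changes, and 18 of 187 calls were of unchanged genes. Among the genes in its fit the simulation had changed only 67, 65 and 63, by 1.5, 2 and 4 times. It left changed genes that fell below the filter out of these rates. It used the same dispersion for every gene and had no library set apart as NC replicate 3 was. Its rates may therefore not hold for the present data. Precision is limited by fragment number, and 3 fragments on a 1 kb gene equal 0.122 to 0.154 FPKM, for counting error only. Alternatives were a pseudocount of 0.1, no filter, a minimum of 5 FPKM, median-ratio scaling, quantile normalization, voom, a replicate block and leaving out each library. Within-library ratios used an exact permutation test in scipy 1.17.1.

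All 10 genes were named. From each list up to 5 called genes with the smallest p and non-overlapping groups were named, with the direct partners of the 10, called or not, and from marker lists the most abundant. The genes and lists were chosen with earlier results of these data known.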

Additional observations from a re-analysis of the deposited data

How the results depend on the processing

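All 10 genes kept direction and call in all 127 pairs of gene and alternative, and Fas came nearest to losing its call (adjusted p = 0.0342 without NC replicate 2). With a minimum of 5 FPKM 6 of the 9 risen genes were left to test. Among 33 other named genes, 384 of 419 pairs were unchanged, 34 lost the call and 1 gained it. Over all tested genes 2109 rose and 1107 fell. Quantile normalization gave 1869 falls, made 43.1% of calls rises in place of 65.6% and moved the median log2 fold change by -0.11, and median-ratio scaling made 51.4% rises. In the pathway lists 3 falls became 5 with median-ratio scaling and 8 with quantile normalization, which gave 1 fall each among adaptors, other receptors and ubiquitin and kinase genes. Leaving out 1 library gave 1198 to 3200 rises and 668 to 1677 falls over all genes, highest without NC replicate 3 and lowest without antagomiR replicate 3. It gave 9 to 9 rises and 1 to 1 fall among the 10 genes, and 22 to 36 rises and 2 to 4 falls in the lists. The causes were not tested.

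Equal replicate numbers are not said to mark a shared preparation, and their deviations from the group means correlated at -0.16, -0.06 and -0.04. With the replicate block 1571 genes rose and 809 fell, 9 and 1 among the 10 genes and 27 and 2 in the lists. Among the 10 genes, depth limits Tnf in NC most, with 6 to 13 fragments.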
